A study of Mus musculus with 16 samples.

Results

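The comparison described here set cerebral cortex of newborn mice with 1 intact copy of Dyrk1a (Dyrk1a+/-, heterozygous) against cortex of newborn mice with both copies intact (Dyrk1a+/+, wild type). Arrays were chosen by their titles: 4 Dyrk1a+/- and 4 Dyrk1a+/+ arrays of postnatal day 0 (P0), each group numbered as biological replicates 1 to 4, which made 8 of the 16 arrays of the series. The remaining 8 arrays held the same genotypes at postnatal day 7 (P7), with 4 arrays in each group. Pups were killed by decapitation, the cortices were dissected and frozen, and 100 ng of RNA was amplified through a two-cycle labelling before hybridization to Affymetrix mouse GeneChip arrays. The labels name no drug, diet or other allele. The kind of Dyrk1a mutation, the genetic background, the sex of the pups and whether pups were pooled are not given in the sources that were used.

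DYRK1A is a dual-specificity kinase that activates itself by phosphorylating a tyrosine and then phosphorylates other proteins on serine and threonine. In the developing cortex it is known to push progenitors out of the cell cycle, partly by marking cyclin D for destruction and partly by helping to assemble the DREAM complex, which represses cell cycle genes in resting cells. Its dose matters in people: it lies in the region triplicated in Down syndrome, and loss of 1 copy causes a syndrome of small brain size, intellectual disability and autism.

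Values are log2 signals of 1 probe set per gene, so a difference of 1 is a doubling of signal, and 12801 genes were bright enough to be tested. Differences are heterozygous minus wild type, with the fit's standard error (SE), each group having n = 4 arrays. A gene "rose", "fell" or "was called" where limma gave a Benjamini-Hochberg adjusted p under 0.05 over those 12801 genes. P-values measure the spread between these arrays. The labels call them biological replicates. An array has no read depth, so the number of arrays limits the precision.

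The arrays differed in ways other than genotype. Replicates 1 and 2 of every group were taken as 1 array batch and replicates 3 and 4 as another. The split was not seen in every pair of arrays: heterozygous P0 replicate 1 correlated with replicate 3 at r = 0.9906 and with replicate 2 at r = 0.9901. Between these array batches 5087 genes differed, and what the batches stand for is not in the labels. Each batch held 2 arrays of each genotype, so results are also given with the batch as a block. The Y-linked gene Eif2s3y was high on 1 P0 array of each genotype, wild-type replicate 4 and heterozygous replicate 2. Of the markers that define the labelled tissue, the cortical neuron genes Neurod6 (10.98 to 11.62 over the 8 arrays) and Tbr1 (8.58 to 9.57) were bright, while the mature glutamatergic marker Slc17a7 was dim (5.02 to 5.70). The choroid plexus, which touches the cortex from inside, gave a signal that varied between dissections. Ttr, its secreted transport protein, read 12.11, 13.87, 8.72 and 6.16 in wild type and 12.98, 13.39, 14.12 and 8.87 in heterozygotes, replicates in order. Its spread within each genotype was larger than the difference between them (2.12, adjusted p = 0.5155). The globin gene Hba-a1 stayed at or under 4.06 on all 8 arrays, while Alas2, another blood marker, read 6.96 to 7.49. These markers therefore do not settle how much blood the samples held.

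Dyrk1a itself was measured by 3 probe sets and none of them read lower in heterozygotes. The brightest read 8.01, 8.18, 7.92 and 7.83 in wild type and 8.05, 8.30, 8.15 and 8.18 in heterozygotes, so the groups overlapped. The difference was 0.19 (SE 0.09, adjusted p = 0.379 in limma, exact two-sided permutation p = 0.0857). The middle probe set read 6.31, 6.93, 6.33 and 6.48 against 6.57, 6.89, 7.45 and 7.03, a difference of 0.47 (exact permutation p = 0.0857). The dimmest differed by 0.12 (exact permutation p = 0.486), and 4 arrays against 4 cannot give a p below 0.0286. The sources used here do not give the part of the transcript that each probe set reads, and the genotype labels are therefore not checked by these values. Of the related DYRK, CLK and HIPK family members, 11 were tested and 0 passed in limma, with or without the batch block (median 0.11). Without the block 1 had an unadjusted limma p under 0.05, and with it 3 had. Among all 12801 genes tested, 1640 were at that level without a block and 2507 with the batch block. Counts of unadjusted p in the gene lists below are to be read against these.

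**Figure D1:**
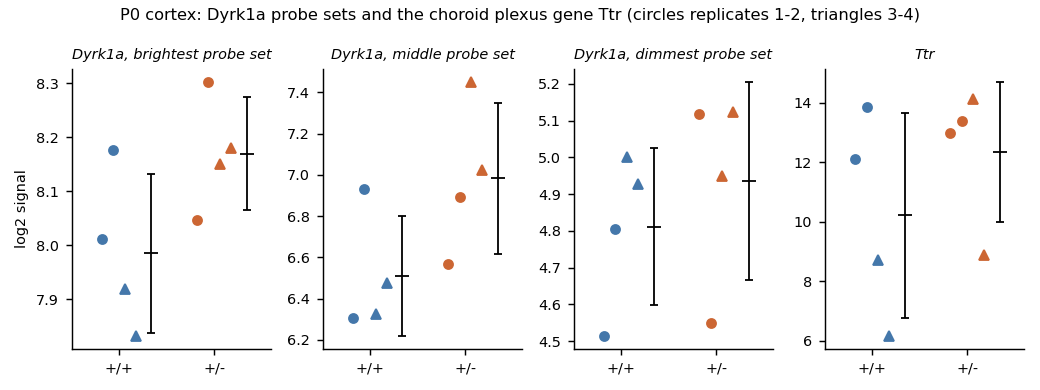
Log2 signal of the 3 Dyrk1a probe sets and of the choroid plexus gene Ttr on each P0 array (+/+ wild type, +/- heterozygous, n = 4 each; circles replicates 1 and 2, triangles replicates 3 and 4; bar, mean ± SD). The genotypes overlap in all 4 panels, and Ttr ranges from 6.16 to 14.12.

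At birth 88 genes differed between the genotypes (0.687% of those tested), of which 18 rose (0.141%) and 70 fell (0.547%) in heterozygotes. The changes were modest: the smallest called difference was 0.39 and the median size 0.58. In all 88 genes the 4 heterozygous arrays lay wholly above or wholly below the 4 wild-type arrays, as was true of 6.97% of all genes tested. That separation by itself gives each of the 88 the same sign within both array batches. With the array batch as a block 459 genes were called (3.59%), 114 higher (0.891%) and 345 lower (2.7%). With the replicate number as a block 386 were called (3.02%), 96 higher (0.75%) and 290 lower (2.27%). Both blocked fits called all of the 88, and 321 genes were called in both. Of the 88 genes, 46 had a further probe set above the signal filter. Of these 50 probe sets 47 had the sign of the one tested, 28 of them with an unadjusted p under 0.05, and 22 showed less than 50% of its difference or the opposite sign. Over all 12801 genes the median difference was -0.03, and 57.2% of genes had a negative one.

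These counts depended on the spread estimated over all 16 arrays and on single arrays. When only the 8 P0 arrays were fitted without a block limma called 0 genes, with 1405 at an unadjusted p under 0.05 (1640 with 16 arrays), and with the batch block it called 109. Without 1 array the count of 88 became 14 (wild-type replicate 1 or 4), 18 (heterozygous replicate 2), 44 (heterozygous replicate 1) or 53 (wild-type replicate 3), and 77 to 107 for the other 3. The call held whichever array was left out for 12 genes, of which Gins1 and Cyp11a1 rose and Ptger4, Itih3, Timp4, Slc6a7, Dmkn, Mal2, Htr7, Vsnl1, Tac1 and Clca3a1 fell. Every other called gene named below lost its call without at least 1 array.

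The largest rise was in H3f3b, 1 of the 2 genes of the replication-independent histone H3.3. It read 8.69, 8.54, 8.87 and 8.20 in wild type and 9.67, 9.79, 9.64 and 9.12 in heterozygotes. All heterozygous arrays were higher, with a difference of 0.98 (SE 0.19, adjusted p = 0.0244), or 1.97 times the wild-type signal. The other H3.3 gene, H3f3a, also rose (0.39, SE 0.08, adjusted p = 0.0367), from 6.22, 6.17, 6.11 and 6.0 to 6.56, 6.60, 6.38 and 6.51. Neither gene had a second probe set of its own to compare, and which part of the transcript each reads is not given. Of 11 tested genes of histones and histone variants these 2 rose and 0 fell (median 0.12).

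Cyp11a1, the mitochondrial enzyme that makes pregnenolone from cholesterol, read 6.46, 6.21, 6.56 and 6.74 in wild type and 7.03, 7.23, 7.76 and 7.5 in heterozygotes. The groups did not overlap, and the difference was 0.89 (SE 0.14, adjusted p = 0.0127). Its 2 other probe sets were dimmer, with mean signals of 4.57 and 4.49, and differed by 0.10 and -0.10. It was the 1 gene called among 6 tested genes of steroid synthesis (median -0.0039).

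Pik3r3, a regulatory subunit of PI3-kinase, read 9.03, 9.41, 8.92 and 9.16 in wild type and 9.91, 10.15, 9.83 and 9.64 in heterozygotes, a rise of 0.75 (SE 0.13, adjusted p = 0.0180). It was the 1 gene called of 20 tested in the PI3-kinase, AKT and mTOR pathway (median 0.04). Trp53inp1, a stress protein induced by p53, rose by 0.67 (SE 0.12, adjusted p = 0.0222). Its wild-type arrays read 10.55, 10.98, 10.50 and 10.46 and its heterozygous arrays 11.45, 11.49, 10.996 and 11.25, so that wild-type replicate 2 nearly met heterozygous replicate 3. Among 16 tested p53 targets it was the 1 that was called without a block, and 8 of them had positive and 8 negative differences (median 0.02). The classical target Cdkn1a, the cell cycle inhibitor p21, was not called.

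Other genes that rose were Hif3a (0.65, SE 0.14), a member of the hypoxia-inducible factor family, the protocadherin gene Pcdhb16 (0.58, SE 0.11), Dpy19l1 (0.57, SE 0.11), the long noncoding RNA Chaserr (0.45, SE 0.09) and Ypel2 (0.44, SE 0.08). Hif3a was less even than the rest, with a difference of 1.01 within replicates 1 and 2 and 0.29 within replicates 3 and 4. Another Hif3a probe set, of mean signal 5.50, differed by -0.05 (SE 0.10), and a dimmer one, of 5.10, by 0.58 (SE 0.16). The ribosome biogenesis gene Rpf1 rose by 0.58 (SE 0.13). Its other probe sets differed by 0.19 (SE 0.17, mean signal 6.36) and, below the filter, by -0.17 (SE 0.08, mean signal 4.73). For the called probe sets of these genes the adjusted p lay between 0.0227 (Ypel2) and 0.0445 (Rpf1).

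**Figure D2:**
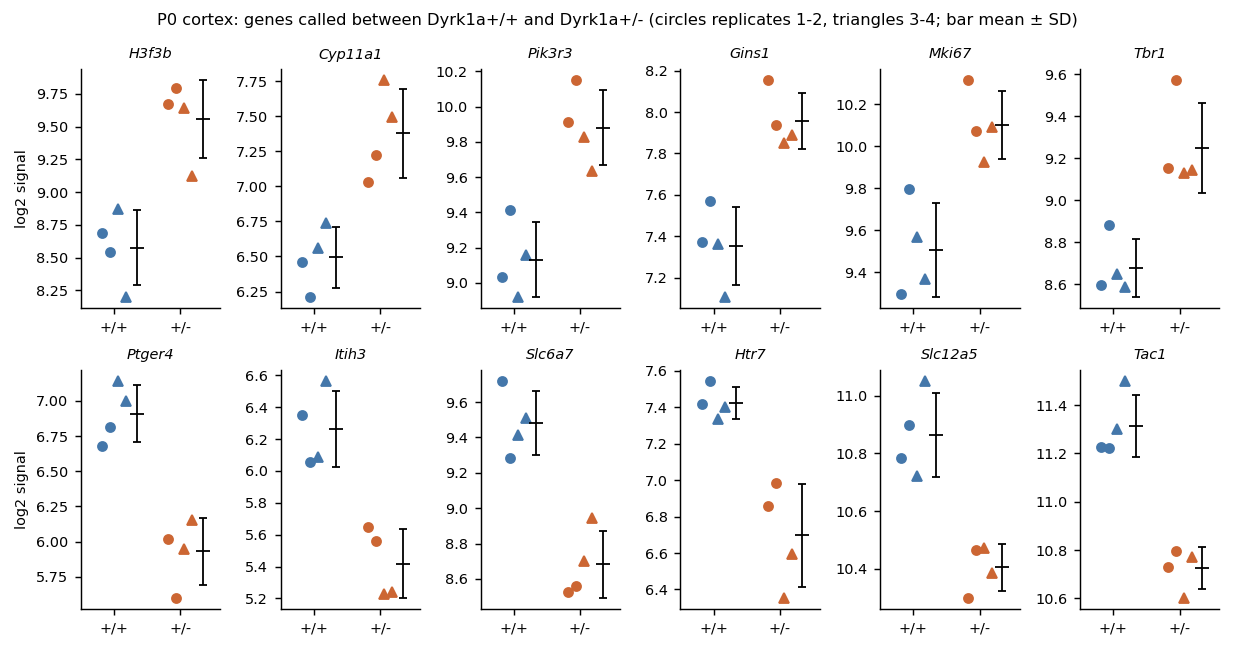
Log2 signal on each P0 array of 6 genes that rose (upper row) and 6 that fell (lower row) in heterozygotes (+/-) against wild type (+/+), n = 4 arrays each; circles are replicates 1 and 2, triangles replicates 3 and 4, and bars the mean ± SD. In every panel the 2 genotypes do not overlap, for example H3f3b at 8.20 to 8.87 against 9.12 to 9.79; each vertical axis has its own range.

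Of the genes that fell, Gpr6 had the largest difference (-1.06, SE 0.22, adjusted p = 0.0374), with a signal 0.48 times that of wild type. Gpr6 is an orphan receptor found in striatal neurons. Its arrays read 6.14, 6.43, 5.75 and 6.41 in wild type and 4.76, 4.61, 5.68 and 5.46 in heterozygotes. Replicates 1 and 2 alone gave -1.61, and replicates 3 and 4 alone gave -0.51.

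Ptger4, a receptor of prostaglandin E2, shared the lowest adjusted p of all genes with Vsnl1. It read 6.68, 6.81, 7.14 and 7.00 in wild type and 6.02, 5.60, 5.95 and 6.15 in heterozygotes, a difference of -0.98 (SE 0.13, adjusted p = 0.00741) that was -0.93 and -1.02 within the 2 batches. Slc6a7, the brain transporter of proline at glutamatergic terminals, fell from 9.72, 9.28, 9.41 and 9.51 to 8.52, 8.56, 8.70 and 8.94 (-0.80, SE 0.12, adjusted p = 0.00893). Htr7, a serotonin receptor, fell from 7.42, 7.54, 7.34 and 7.40 to 6.86, 6.98, 6.35 and 6.59 (-0.73, SE 0.11, adjusted p = 0.00893). In each of these 3 genes every heterozygous array read lower than every wild-type array.

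Mal2, Syt17, Syt13 and Chchd10 were among the larger falls. Mal2, a protein of vesicle transport, fell by 0.75 (SE 0.12) and Syt17 and Syt13, members of the synaptotagmin family, by 0.72 (SE 0.13) and 0.70 (SE 0.14). Mal2 was tight in heterozygotes, at 6.23, 6.16, 6.12 and 6.20, against 7.36, 6.85, 6.75 and 6.75 in wild type. Chchd10, a mitochondrial protein of the intermembrane space, fell by 0.70 (SE 0.12), from 8.86, 8.50, 8.33 and 8.71 to 8.17, 7.83, 7.79 and 7.80. A second bright probe set of Chchd10 (mean signal 8.28) differed by -0.15 (SE 0.13, unadjusted p = 0.26), so the 2 did not give the same size. Tmie (-0.79), Dmkn (-0.77), Igsf1 (-0.73), Ankrd34b (-0.88) and Smim17 (-0.69) fell as well, and Dmkn was dim, at 5.60 or less on every P0 array. Another probe set of Igsf1, of mean signal 6.06, differed by -0.14 (SE 0.11), and another of Tmie, of mean signal 5.79, by -0.32 (SE 0.14).

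Genes typical of mature neurons were also among those that fell, and these 4 were singled out after their values were seen. The calcium sensor Vsnl1 read 10.85, 10.82, 10.98 and 10.98 in wild type and 10.23, 10.46, 10.28 and 10.17 in heterozygotes (-0.63, SE 0.08, adjusted p = 0.00741). Thy1, a surface glycoprotein of axons, fell by 0.68 (SE 0.15) and Nefl, the light neurofilament subunit, by 0.46 (SE 0.10). Cckbr, a cholecystokinin receptor, fell by 0.56 (SE 0.12), with heterozygous arrays at 6.51, 6.51, 6.50 and 6.41 and wild-type arrays between 6.93 and 7.17. Its other probe set, of mean signal 5.47, differed by -0.15 (SE 0.11). Slc17a7, the dim mature glutamatergic marker, was not called (0.12, adjusted p = 0.924), and no list of mature neuron genes was counted.

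Few single genes of dividing cells passed the test without a block. Of 38 tested genes of the S to M phases, 2 rose, 0 fell and 36 did not pass, and 35 had a positive difference (median 0.25, against -0.03 over all genes). Mki67, the gene of the proliferation antigen Ki-67, read 9.29, 9.79, 9.57 and 9.37 in wild type and 10.32, 10.07, 9.92 and 10.09 in heterozygotes (0.60, SE 0.12, adjusted p = 0.0318). Gins1, a subunit of the complex that opens DNA for replication, read 7.37, 7.57, 7.36 and 7.11 against 8.15, 7.94, 7.85 and 7.89 (0.61, SE 0.10, adjusted p = 0.0130). In neither gene did the genotypes overlap.

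With the batch block 9 of the 38 rose and 0 fell, and with the replicate block 6 rose, where Tpx2, Ccna2 and Birc5 were not called (adjusted p = 0.0629, 0.0641 and 0.0544). The 9 were Mki67, Gins1, the topoisomerase Top2a (0.61), the checkpoint kinase Bub1 (0.61), the mitotic motor Kif11 (0.57), the spindle proteins Nusap1 (0.62) and Tpx2 (0.37), the cyclin Ccna2 (0.36) and the survivin gene Birc5 (0.35). Top2a read 8.55, 8.96, 8.34 and 8.22 in wild type and 9.31, 9.25, 8.94 and 8.99 in heterozygotes, and its adjusted p was 0.0661 without a block and 0.00460 with the batch block. Its wild-type replicate 2 read just above heterozygous replicate 3. The count of 9 became 4 without wild-type replicate 1 or wild-type replicate 4 and 13 when wild-type replicate 2 was left out. The mean signal of the 38 genes was 7.70, 7.80, 7.59 and 7.48 on the wild-type arrays and 8.05, 7.96, 7.75 and 7.86 on the heterozygous arrays, so the genotypes overlapped by 1 pair of arrays. Within each batch both heterozygous arrays were the higher ones, and the list medians in the 2 batches were 0.21 and 0.26.

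Promoters of many mitotic genes hold a CHR element, where the DREAM complex binds, next to CCAAT boxes, where NF-Y binds. Sequence upstream of the transcription start is shown for Mki67, which rose without a block, and for Top2a, which was called with either block, to show how those letters lie in the 2 genes. Both are from RefSeq (GRCm38.p6), on the minus strand, written 5′ to 3′ up to the base before the start. Mki67 is chr7:135716380-135716579 and Top2a chr11:99024190-99024419. Capitals mark TTTGAA (CHR) and CCAAT on either strand, so that the reverse forms read TTCAAA and ATTGG.
Mki67: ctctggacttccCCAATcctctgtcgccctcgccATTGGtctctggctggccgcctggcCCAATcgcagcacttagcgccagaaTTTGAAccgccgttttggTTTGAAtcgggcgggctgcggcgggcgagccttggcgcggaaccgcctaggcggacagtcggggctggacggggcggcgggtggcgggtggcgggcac
Top2a: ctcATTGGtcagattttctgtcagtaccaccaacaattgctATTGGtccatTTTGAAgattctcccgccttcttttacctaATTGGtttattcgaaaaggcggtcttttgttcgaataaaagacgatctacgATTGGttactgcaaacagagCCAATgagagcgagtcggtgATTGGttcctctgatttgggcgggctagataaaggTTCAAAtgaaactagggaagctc
Mki67 held 2 TTTGAA and 3 CCAAT in these 200 bases, and Top2a 2 TTTGAA and 6 CCAAT, 5 of them on the reverse strand, in 230 bases. Over the 250 bases before the start, TTTGAA on either strand was found in 10 of the 30 S to M phase genes with a promoter entry (33.3%), against 16% of 32851 promoters. CCAAT was found in 25 of the 30 (83.3%) against 33.9%. The E2F-type letters TTTCCCGC were found in 2 of the 30 (6.67%) against 0.895%. These motifs do not overlap each other in letters. A listed gene counted where any of its promoter entries held the letters, whereas the background counted each promoter, so these shares are in unlike units. A match describes the sequence and is not evidence of binding in this tissue.

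Genes that control entry into the cycle were mostly not called. Of 21 tested G1 cyclins, CDK inhibitors and RB-E2F genes 15 had positive differences (median 0.16). Without a block 3 had an unadjusted limma p under 0.05, as did 1640 of all 12801 genes. In limma 0 of the 21 were called without a block, and 1 with the batch block. That gene was Ccnd2, a D-type cyclin, at 10.78, 11.08, 10.85 and 10.85 in wild type and 11.27, 11.21, 11.31 and 11.29 in heterozygotes (0.38, SE 0.09, adjusted p = 0.0739 without a block and 0.0253 with it). Its groups did not overlap. Wild-type replicate 2 was the highest of its group.

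Progenitor and neuron identity genes were mostly not called, with single exceptions. Of 18 radial glia genes 1 rose, Gli3, the transcription factor of the Shh pathway that patterns the cortex (median of the list 0.05, and -0.0011 within replicates 3 and 4). Gli3 read 7.21, 7.31, 7.37 and 7.12 in wild type and 7.79, 7.83, 7.54 and 7.61 in heterozygotes (0.44, SE 0.10, adjusted p = 0.0472), and a second bright probe set of the gene differed by 0.57 (SE 0.12). Pax6, the regulator of radial glia, had 0.48 and was called with the batch block (adjusted p = 0.0204, against 0.312 without a block). Gli3 was the 1 gene called among 29 tested of the Notch, Wnt and Shh pathways (median 0.11). That list did not hold the ligand genes Shh and Wnt4, which were singled out after their values were seen. Shh fell by 0.48 (SE 0.10, adjusted p = 0.0334) and Wnt4 by 0.56 (SE 0.10, adjusted p = 0.0227).

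Of 14 genes of intermediate progenitors and neurogenesis 0 were called without a block in limma although 13 had positive differences (median 0.24, and 0.17 and 0.32 within the batches, 7 at an unadjusted p under 0.05). Their mean signal was 8.29, 8.57, 8.33 and 8.19 in wild type and 8.68, 8.60, 8.57 and 8.60 in heterozygotes, where wild-type replicate 2 nearly equalled heterozygous replicate 3. Btg2, an antiproliferative gene switched on in progenitors about to make neurons, was the 1 called with the batch block (0.36, adjusted p = 0.0418). Without wild-type replicate 2 the fit without a block called 2 of the 14, and the batch block 5. Without any other single array neither called any.

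Of 16 deep-layer and subplate genes 1 rose, Tbr1, the transcription factor of early-born corticothalamic neurons and an autism gene. It read 8.59, 8.88, 8.65 and 8.58 in wild type and 9.15, 9.57, 9.13 and 9.14 in heterozygotes (0.57, SE 0.12, adjusted p = 0.0285). Heterozygous replicate 2 was the highest, and without a single array the call was kept in 3 of 8 fits. The rest of the list was spread around 0 (median 0.05, 9 positive and 7 negative, and -0.0028 without wild-type replicate 4). With the batch block the calmodulin-binding gene Pcp4 also fell (-0.50, adjusted p = 0.0185). Of 14 upper-layer genes 0 were called without a block in limma (median 0.02, 1 at an unadjusted p under 0.05, a median that turned negative, -0.0048, when the arrays were quantile normalized again). Rasgrf2, a marker of upper-layer neurons, fell with the batch block (-0.48, adjusted p = 0.0174). Of 16 immature neuron genes 0 were called without a block in limma (5 at an unadjusted p under 0.05), and Neurod2, a transcription factor of differentiating excitatory neurons, rose with the batch block (0.39, adjusted p = 0.0291).

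Genes of synapses and excitability that passed without a block all had lower signal in heterozygotes, a few in each list. Of 35 presynaptic genes 3 fell, 0 rose and 32 did not pass, and 33 of the 35 differences were negative (median -0.18). Their mean signal was 9.69, 9.52, 9.62 and 9.59 in wild type and 9.36, 9.37, 9.40 and 9.30 in heterozygotes, so no heterozygous array reached the lowest wild-type one. The members that fell were Slc6a7, Dnm1, the GTPase that pinches off vesicles and a substrate of DYRK1A, and Doc2a, a calcium sensor of spontaneous release. Dnm1 read 10.96, 10.85, 11.10 and 11.10 in wild type and 10.62, 10.56, 10.62 and 10.57 in heterozygotes (-0.41, SE 0.08, adjusted p = 0.0241). Its other probe set was dim, of mean signal 5.22, and differed by -0.13 (SE 0.24). Doc2a read 8.96, 8.51, 8.68 and 8.37 against 8.02, 8.08, 8.12 and 8.07 (-0.56, SE 0.12, adjusted p = 0.0472).

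Presynaptic genes that fell numbered 9 with the batch block and 8 with the replicate block. The additional 6 were the priming factor Unc13c (-0.63), the active zone scaffold Rims2 (-0.60), the fusion protein Stx1a (-0.50), Doc2b (-0.50), Syngr3 (-0.40) and the synapsin Syn2 (-0.32), the last not called with the replicate block (adjusted p = 0.0740). Unc13c read 8.98, 8.69, 8.69 and 8.57 in wild type and 8.43, 8.19, 7.89 and 7.90 in heterozygotes, and its adjusted p was 0.0617 without a block and 0.00187 with the batch block. The count of 9 became 4 without wild-type replicate 1 or wild-type replicate 4 and was at most 10.

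Of 30 genes of glutamate receptors and the excitatory postsynapse 2 fell and 0 rose, and 24 differences were negative (median -0.10). Shank3, the scaffold at the core of excitatory synapses and an autism gene, read 7.56, 7.38, 7.61 and 7.57 in wild type and 7.24, 6.76, 6.84 and 6.94 in heterozygotes (-0.58, SE 0.10, adjusted p = 0.0180). Grin3a, an NMDA receptor subunit typical of juvenile synapses, read 9.29, 9.09, 9.33 and 9.31 against 8.92, 8.58, 8.70 and 8.96 (-0.46, SE 0.10, adjusted p = 0.0318). The batch block brought this to 4, adding the metabotropic receptor Grm4 (-0.47) and the kainate receptor subunit Grik1 (-0.42), and leaving out single arrays gave 2 to 5. Grik1 was not called with the replicate block (adjusted p = 0.0629).

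Among 14 GABA receptor and inhibitory postsynapse genes 1 fell, and 12 differences were negative (median -0.18). Slc12a5, the chloride exporter KCC2, which makes GABA inhibitory as neurons mature, read 10.78, 10.90, 10.72 and 11.05 in wild type and 10.30, 10.46, 10.47 and 10.38 in heterozygotes (-0.46, SE 0.09, adjusted p = 0.0227). The difference was -0.46 within each batch. The blocked fit called 3, adding the receptor subunits Gabrg1 (-0.72) and Gabrb1 (-0.40), and 3 or 4 fell whichever array was left out. The list's mean signal lay between 9.16 and 9.22 on the wild-type arrays and between 8.93 and 9.01 on the heterozygous ones.

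Among 18 genes of cortical interneurons 0 were called without a block in limma, with 8 positive and 10 negative differences (median -0.09, 7 at an unadjusted p under 0.05). Of these, 3 fell with the batch block: the vesicular GABA transporter Slc32a1 (-0.48) and the calcium-binding proteins Calb1 (-0.51) and Calb2 (-0.75), of which Calb2 was not called with the replicate block (adjusted p = 0.0544). Calb2 is also a marker of Cajal-Retzius cells, the early neurons of the cortical surface. Of 5 tested genes of these cells 0 were called without a block in limma (3 at an unadjusted p under 0.05). With the batch block Calb2 and Cacna2d2 (-0.59) fell, while the other 3 differences were positive (list median 0.15). The GABA-synthesizing enzymes were not called, with Gad1 at -0.25 (adjusted p = 0.4676) and Gad2 at -0.03 (adjusted p = 0.9777).

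Of 35 voltage-gated channel genes 2 fell, both potassium channels, and 25 differences were negative (median -0.10). Kcnc4 read 7.98, 7.84, 7.96 and 7.98 in wild type and 7.35, 7.47, 7.30 and 7.2 in heterozygotes (-0.61, SE 0.12, adjusted p = 0.0244), while its other probe set, of mean signal 6.81, differed by -0.10 (SE 0.12). Kcna2 read 7.62, 7.58, 7.52 and 7.70 against 7.05, 7.19, 7.30 and 7.24 (-0.41, SE 0.08, adjusted p = 0.0263). The batch block called the same number in this list. Of 18 immediate early genes 0 were called without a block in limma (median -0.03, and 0.04 within replicates 1 and 2, 3 at an unadjusted p under 0.05).

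**Figure D3:**
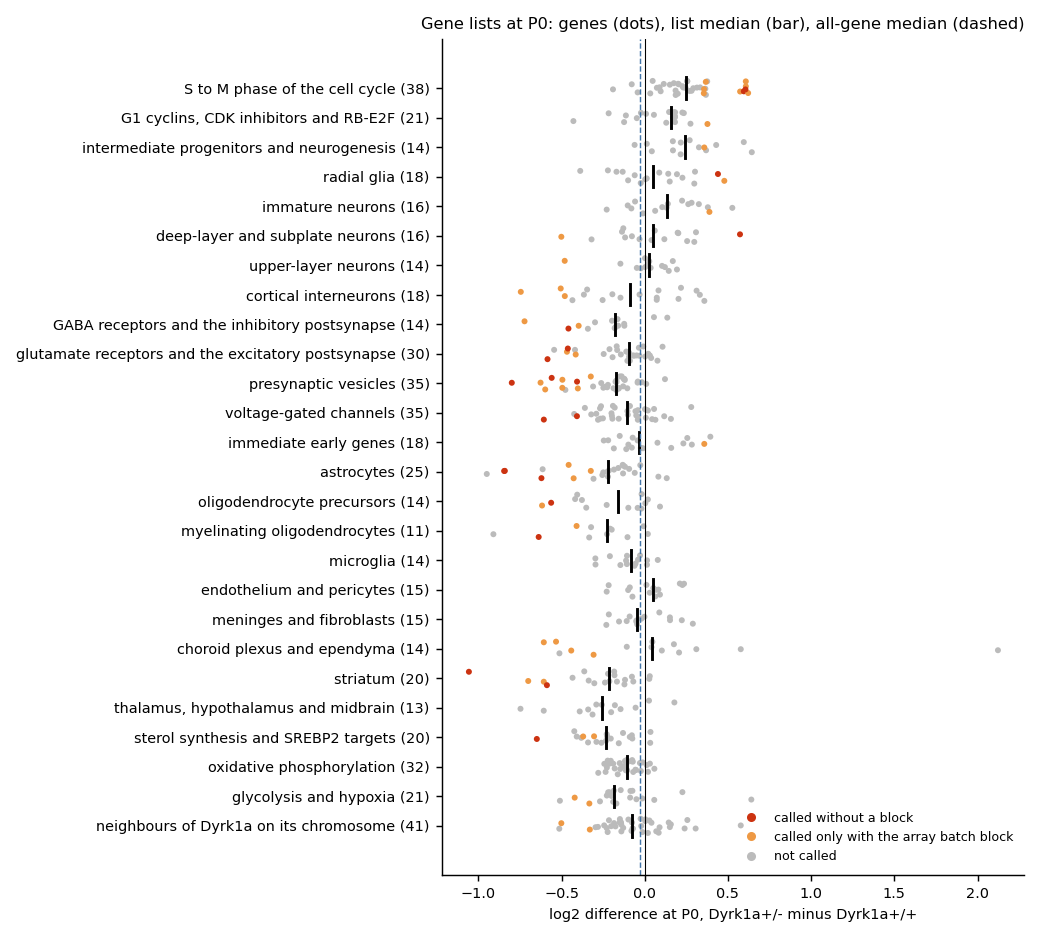
Log2 difference (heterozygous minus wild type) at P0 of each tested gene (dots) in 26 gene lists, with the number of genes in brackets, the list median (black bar) and the median of all genes (dashed line, -0.03). Cell cycle and neurogenesis lists lie mostly right of 0 (medians 0.25 and 0.24), and presynaptic, astrocyte, striatal and sterol lists mostly left (-0.18, -0.22, -0.22 and -0.23).

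Of the glial genes, those called were lower in heterozygotes and most did not pass. In whole tissue, fewer cells of a type and less RNA per cell cannot be told apart, here and for every list of cell type genes. Of 25 astrocyte genes 3 fell and 0 rose, and 23 differences were negative (median -0.22). Itih3, a matrix protein inhibitor, read 6.35, 6.06, 6.08 and 6.56 in wild type and 5.65, 5.56, 5.23 and 5.24 in heterozygotes (-0.85, SE 0.13). Timp4, an inhibitor of metalloproteinases, read 6.90, 6.74, 6.64 and 6.79 against 6.18, 5.81, 5.66 and 6.04 (-0.84, SE 0.12). Its other probe set, of mean signal 5.18, differed by -0.19 (SE 0.12). Aqp4, the water channel of astrocyte end-feet, read 7.87, 7.71, 7.43 and 7.64 against 7.05, 7.05, 6.92 and 7.15 (-0.62, SE 0.12). In these 3 genes the genotypes did not overlap, and their adjusted p were 0.00893, 0.00893 and 0.0251.

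Blocking by batch, 6 astrocyte genes fell, adding Clu (-0.46), Slc7a10 (-0.43) and Mlc1 (-0.32), and with the replicate block 4 did, without Slc7a10 and Mlc1 (adjusted p = 0.0678 and 0.0550). The count of 6 was 3 without wild-type replicate 1, heterozygous replicate 1, 2 or 4, and at most 7. The mean signal of the list was 8.76, 8.50, 8.52 and 8.62 in wild type and 8.31, 8.33, 8.27 and 8.31 in heterozygotes, without overlap. Markers that astrocytes share with radial glia were not called. Slc1a3, a glutamate transporter, had -0.13 (adjusted p = 0.7789), and Vim had 0.14 (adjusted p = 0.7247).

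Of 11 genes of myelinating oligodendrocytes 1 fell, Cnp, an enzyme of early myelin, from 9.28, 8.86, 9.0 and 8.96 to 8.57, 8.27, 8.36 and 8.35 (-0.64, SE 0.13, adjusted p = 0.0263), and 10 differences were negative (median -0.23). The other Cnp probe sets, of mean signal 6.74 and 6.87, differed by -0.73 (SE 0.16) and -0.22 (SE 0.10). Mbp, myelin basic protein, read 6.93, 6.04, 6.71 and 6.19 against 4.87, 5.93, 6.05 and 5.38. It overlapped by 1 pair of arrays and was not called in either fit (-0.91, adjusted p = 0.129, and 0.0611 with the batch block). Of 14 precursor genes 1 fell, Gpr17, a receptor of cells about to differentiate, from 7.40, 6.92, 7.11 and 7.11 to 6.56, 6.62, 6.51 and 6.58 (-0.56, SE 0.12, adjusted p = 0.0458). Of the 14 precursor differences 11 were negative and 3 positive (median -0.16). The mean signal of the precursor list was lower on every heterozygous array than on any wild-type array. The defining precursor genes Olig2 (-0.04) and Pdgfra (0.09) were not called, and neither was the marker Olig1 (-0.35, adjusted p = 0.2168). With the batch block Tspan2 (-0.41) and Pcdh15 (-0.62) also fell in these 2 lists, and Tspan2 missed the threshold with the replicate block (adjusted p = 0.0501).

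Microglia (14 genes, median -0.08), endothelium and pericytes (15 genes, median 0.05) and meninges and fibroblasts (15 genes, median -0.05) had 0 called genes in limma, with or without the batch block. At an unadjusted p under 0.05 they had 3, 0 and 1 without the block. The meningeal median was not stable in sign: without wild-type replicate 1 it was 0.09. The mean signal of the meningeal genes ran from 7.64 to 8.38 over the 8 arrays and was highest on replicate 1 of both genotypes. The blood list held only 2 genes above the filter.

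Neighbouring brain regions can enter a cortical dissection, so their markers were read beside the cortical lists. Of 20 striatal genes 2 fell, Gpr6 and Tac1, the precursor of substance P, and 18 differences were negative (median -0.22, and -0.11 and -0.34 within the batches). Tac1 read 11.23, 11.22, 11.30 and 11.50 in wild type and 10.73, 10.80, 10.60 and 10.77 in heterozygotes (-0.59, SE 0.09, adjusted p = 0.0114). Penk, the enkephalin precursor, read 8.53, 7.79, 8.43 and 8.46 against 7.54, 7.54, 7.48 and 7.86 (-0.70, SE 0.16, adjusted p = 0.0567, and 0.00663 with the batch block). Blocking by batch, 4 fell, adding Penk and the endopeptidase Ecel1 (-0.61), and Ecel1 was not called with the replicate block (adjusted p = 0.0580). The dopamine receptors that define striatal projection neurons were not called, with Drd1 at -0.21 (adjusted p = 0.3859) and Drd2 at -0.22 (adjusted p = 0.5117). The list's mean signal lay between 8.04 and 8.17 in wild type and between 7.72 and 7.87 in heterozygotes. It was lower in heterozygotes, as were the means of the synaptic and channel lists, and its part in those results was not tested.

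Of 13 genes of thalamus, hypothalamus and midbrain 0 were called in limma, with or without the batch block, and 11 differences were negative (median -0.26, 2 at an unadjusted p under 0.05 without the block). Their mean signal was lowest on heterozygous replicate 3 (6.53) and otherwise ran from 6.79 to 7.22. Of 9 hippocampal genes 0 were called without a block in limma (median -0.08, 3 at an unadjusted p under 0.05). Wfs1 (-0.59) and Calb1 fell with the block. Of 11 genes of the olfactory bulb and its interneuron precursors 0 were called in limma with or without the block (median 0.03, 2 at an unadjusted p under 0.05 in each fit).

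The choroid plexus and ependyma list had medians of opposite sign in the 2 batches. Of 14 genes 0 were called without a block in limma (5 at an unadjusted p under 0.05), with a median of -0.37 in replicates 1 and 2 alone and 0.37 in replicates 3 and 4 alone. The blocked fit called 4 genes of motile cilia, the beating hairs of ependymal cells, as lower: Ak7 (-0.61), Tmem212 (-0.53), Rsph1 (-0.44) and Foxj1 (-0.31). Ak7 read 7.57, 7.37, 7.01 and 7.40 in wild type and 6.66, 7.03, 6.82 and 6.41 in heterozygotes. Foxj1, the master regulator of motile cilia, was dim, at 5.73, 5.68, 5.84 and 5.86 against 5.47, 5.47, 5.40 and 5.55, with no overlap. Leaving out single arrays gave 1 to 3 called genes in the blocked fit.

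**Figure D4:**
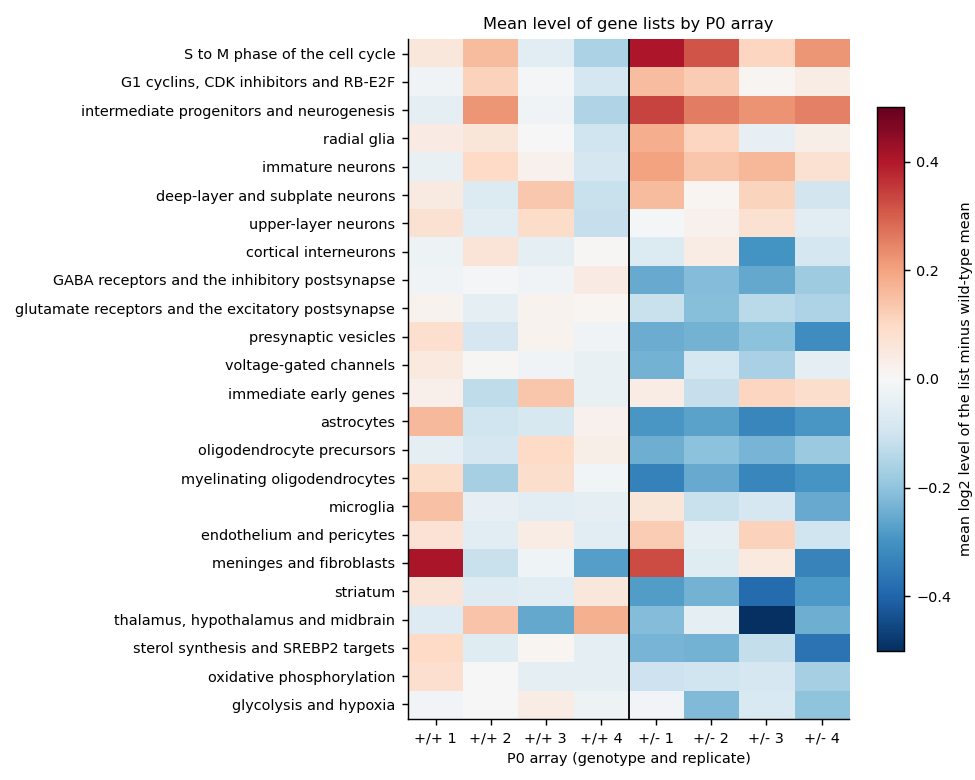
Mean log2 signal of each gene list on each of the 8 P0 arrays, minus the mean of the 4 wild-type arrays (red higher, blue lower; numbers are replicates). The astrocyte, GABA, presynaptic, striatal and sterol lists are below the wild-type mean on all 4 heterozygous arrays, while the meningeal list is highest on replicate 1 of both genotypes (8.38 and 8.29).

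Of 20 tested genes of sterol synthesis 1 fell, 0 rose and 19 did not pass, and 18 differences were negative (median -0.23, and -0.26 and -0.18 within the batches). Mvd, the decarboxylase of the mevalonate pathway, read 8.40, 7.92, 8.23 and 8.0 in wild type and 7.46, 7.51, 7.74 and 7.25 in heterozygotes (-0.65, SE 0.13, adjusted p = 0.0263). With the batch block the isomerase Idi1 (-0.37) and the kinase Pmvk (-0.30) also fell, and with the replicate block neither was called (adjusted p = 0.0643 and 0.0834). Idi1 read 10.53, 10.32, 10.28 and 10.33 against 9.88, 10.14, 10.09 and 9.88, without overlap. The count of 3 ran from 1 to 5 when single arrays were left out. The list's mean signal was 9.53, 9.37, 9.44 and 9.39 in wild type and 9.20, 9.20, 9.31 and 9.06 in heterozygotes.

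Sterol genes are switched on together by SREBP2, which binds sterol elements and acts with NF-Y, the factor that binds CCAAT boxes. Upstream sequence is shown for Mvd and Idi1, the member called without a block and the called member with the lowest adjusted p among those that needed one. Both are from RefSeq (GRCm38.p6), written 5′ to 3′ up to the base before the start, with capitals marking CCAAT on either strand. Mvd is chr8:122443423-122443522 on the minus strand and Idi1 chr13:8885506-8885605 on the plus strand.
Mvd: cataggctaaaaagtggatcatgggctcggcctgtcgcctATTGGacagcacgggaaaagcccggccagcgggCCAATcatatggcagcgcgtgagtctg
Idi1: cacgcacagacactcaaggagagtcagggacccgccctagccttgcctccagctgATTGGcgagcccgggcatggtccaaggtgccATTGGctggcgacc
Each held 2 CCAAT in these 100 bases. Over the 250 bases before the start, CCAAT was present in 16 of the 16 sterol genes with a promoter entry (100%), against 33.9% of all promoters, and the sterol element letters TCACNCCAC in 1 of the 16 (6.25%), against 1.05%. Of the S to M phase genes, whose median difference had the opposite sign, 25 of 30 also held CCAAT. Here too a listed gene counted where any of its promoter entries matched, and the background counted each promoter.

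Other metabolic lists had small negative medians. Of 13 genes of fatty acid synthesis 0 were called without a block in limma (median -0.15, 1 at an unadjusted p under 0.05), and Acly, which makes cytosolic acetyl-CoA, fell with the batch block (-0.26, adjusted p = 0.0418) but was not called with the replicate block (adjusted p = 0.0892). Of 21 genes of glycolysis and hypoxia 0 were called without a block in limma (median -0.19, 6 at an unadjusted p under 0.05). The glycolytic enzymes Aldoa (-0.42) and Eno2 (-0.33), the latter a neuronal form, fell with the batch block, and Eno2 was not called with the replicate block (adjusted p = 0.0644). Of 32 genes of oxidative phosphorylation 0 were called in limma in either fit, with 28 negative differences in a narrow range (median -0.11, from -0.28 to 0.06, 4 at an unadjusted p under 0.05 without the block). Ribosomal proteins (17 genes, median 0.07) and splicing factors (27 genes, median 0.13, of which 21 were positive) also had 0 called genes in limma in either fit, with 0 and 3 at an unadjusted p under 0.05 without the block.

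Proteins that DYRK1A phosphorylates or binds showed no common direction. Of 28 tested, 1 fell, Dnm1, and 15 differences were positive and 13 negative (median 0.07, and -0.05 with the filter at the 60th percentile of signal). Rcan2 (-0.49), a regulator of calcineurin, also fell with the batch block, and Ccnd2 and Dcaf7 (0.29) rose. Dcaf7 is a scaffold that binds DYRK1A, and it read 12.18, 12.42, 12.31 and 12.30 in wild type and 12.53, 12.69, 12.65 and 12.50 in heterozygotes (adjusted p = 0.0827, 0.0324 with the batch block and 0.0534 with the replicate block). Of 14 genes of calcineurin and NFAT signalling, which DYRK1A opposes, 0 were called without a block in limma (median -0.02, 3 at an unadjusted p under 0.05) and Rcan2 was the 1 called with it. Of 21 genes of autism and intellectual disability, Tbr1 rose and Shank3 fell, and the batch block added Ddx3x (0.30), which the replicate block did not (adjusted p = 0.0608). The list median was 0.05 (-0.0064 within replicates 3 and 4).

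Genes beside Dyrk1a on chromosome 16 were read as a check on the surrounding region. Of the 41 tested genes nearest to it, 0 were called without a block in limma (median -0.08, 15 positive and 26 negative, 9 at an unadjusted p under 0.05). Blocking by batch, 2 fell, Pcp4 (-0.50) and Bace2 (-0.33), a secretase related to the enzyme that cuts the amyloid precursor, and 0 rose. Leaving out single arrays gave 0 to 3. Pcp4 read 10.38, 10.34, 10.51 and 10.82 in wild type and 10.20, 9.86, 9.89 and 10.09 in heterozygotes. Bace2 was dim, between 5.18 and 5.85 on the 8 arrays.

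Beyond the gene lists, the batch block brought in genes with strong batch offsets. Resp18, a protein of secretory granules, read 7.11, 7.27, 6.45 and 6.69 in wild type and 5.95, 6.35, 5.11 and 5.50 in heterozygotes, a difference of -1.15 that was not called without a block (SE 0.29, adjusted p = 0.0739) and was with it (SE 0.19, adjusted p = 0.00460). Rab27b, a GTPase of secretory vesicles, differed by -0.70 within each batch (adjusted p = 0.000609 with the block). Acsl4, Tuba4a and Tppp3 had -0.60, -0.60 and -0.71. On the higher side were Smc4, a condensin subunit (0.46), Rfc4, a loader of the replication clamp (0.53), Tox3 (0.47) and Rfx5 (0.63). Rfc4 read 6.83, 6.77, 6.14 and 5.95 against 7.28, 7.12, 6.72 and 6.69, higher in heterozygotes within each batch but overlapping across them.

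The same contrast at P7 used other animals and other arrays. Of the 88 genes called at P0, 83 had the same sign at P7, 16 of the 18 higher and 67 of the 70 lower ones, and 49 had that sign with an unadjusted p under 0.05. The same shares over all genes tested were not counted, so how far these counts exceed them is not known. The differences were smaller: the median of the called higher genes was 0.58 at P0 and 0.22 at P7, and that of the called lower genes -0.57 and -0.25. The P0 medians are those of genes chosen for their P0 difference. Only 4 genes were called at both ages, all lower: Tac1 (-0.59 and -0.48), Gpr83 (-0.52 and -0.76), Tlcd1 (-0.46 and -0.55) and Tmem151a (-0.47 and -0.51). Gpr83, Tlcd1 and Tmem151a were singled out after their values were seen. Of the other Tlcd1 probe sets, the brightest (mean signal 6.69) differed by -0.06 at P0 (SE 0.09).

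The difference between the P0 and P7 effects was itself tested, and 0 of 12801 genes passed in limma (0%), with 995 at an unadjusted p under 0.05, 48 of them among the 88. The 88 were chosen for their P0 difference, which is part of this contrast, so the 48 cannot show how often effects changed with age. Pik3r3 and Trp53inp1 differed by nearly as much at P7 (0.63 and 0.59) as at P0 (0.75 and 0.67). Pik3r3 read 8.57, 8.78, 8.37 and 8.64 in wild type at P7 and 9.51, 9.15, 9.14 and 9.10 in heterozygotes. Mal2 differed by -0.0041 at P7 against -0.75 at P0, where the test of the change gave an unadjusted p of 0.00031 and an adjusted p of 0.311. Dpy19l1 changed sign, 0.57 at P0 and -0.29 at P7 (adjusted p = 0.228 for the change). Foxj1 and Ak7 did so too, at -0.31 and -0.61 at P0 and 0.30 and 0.33 at P7 (adjusted p = 0.228 and 0.235).

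List medians had the same sign at both ages in 34 of 42 lists, among them S to M phase genes (0.25 and 0.13), presynaptic genes (-0.18 and -0.15), the inhibitory postsynapse (-0.18 and -0.13), astrocytes (-0.22 and -0.18), striatum (-0.22 and -0.26) and sterol synthesis (-0.23 and -0.19). Interneuron genes had medians of -0.09 and -0.35, and intermediate progenitors 0.24 and 0.08. The sign differed in the other 8: deep-layer and subplate genes (0.05 and -0.10), Cajal-Retzius cells (0.15 and -0.09), endothelium and pericytes (0.05 and -0.08), choroid plexus and ependyma (0.04 and -0.08), steroid synthesis (-0.0039 and 0.03), the DYRK, CLK and HIPK kinases (0.11 and -0.05), DYRK1A substrates and partners (0.07 and -0.01) and the PI3-kinase pathway (0.04 and -0.04). Differences between ages in a list median were not tested.

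**Figure D5:**
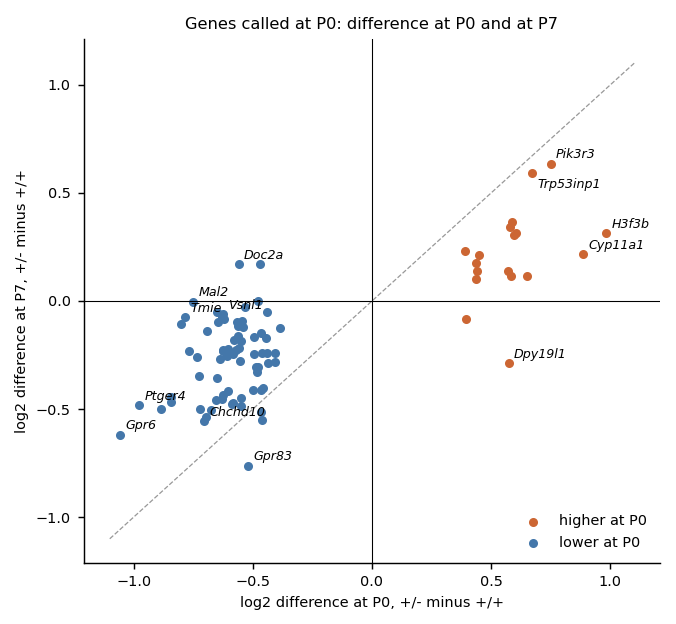
Log2 difference (heterozygous minus wild type) at P0 (horizontal) and at P7 (vertical) of the 88 genes called at P0, with equal effects on the dashed line. Most points lie nearer to 0 on the P7 axis than on the P0 axis, 83 keep their sign, and Pik3r3 and Trp53inp1 lie close to the line.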

How the data were processed

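Each deposited value is a log2 signal of 1 probe set on 1 array, already normalized and summarised by the authors with a method not named in the sources used here. Of 45037 probe sets, 34945 had exactly 1 gene symbol in the platform annotation. For each of 18193 genes the probe set with the highest 16-array mean was kept, and genes below the 40th percentile of signal (log2 5.15) were left out, which left 12801.

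The 4 group means were fitted on all 16 arrays by limma 3.58.1 in R 4.3.3 (two-sided eBayes test with 12 residual and 4.59 prior degrees of freedom), and Benjamini-Hochberg adjustment ran over all genes tested. Alternative fits used the array batch (replicates 1 and 2 against 3 and 4) or the replicate number within age as a block. Arrays of the same number deviated together from their group means (r from 0.206 to 0.599 at P0), so the numbers were treated as pairs, though arrays of 1 batch with different numbers also had correlations of 0.0096 to 0.349. Other alternatives covered normalization, filtering, probe set choice and single arrays. Dyrk1a was also tested by exact permutation (70 arrangements). The procedure was tested on simulated data.

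The comparison, the gene lists and the fits were chosen with earlier results of these data known. Lists were written from general knowledge and described by counts and medians, with no test of a list. Named genes are Dyrk1a, up to 15 per direction with the largest difference among called genes whose groups did not overlap, up to 4 per list by lowest p (called without a block first), up to 6 per direction called only with the batch block, and called neighbours of Dyrk1a, and a selection of these is printed. Defining markers of tissues were read for every group. Further list members called with the batch block were named after their values were seen. Promoter sequences are RefSeq's.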

Additional observations from a re-analysis of the deposited data

Results flagged for a closer look

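In groups of 4 arrays, a gene was looked at again where the gap between 1 array and the other 3, as a part of the group's whole range, passed Dixon's 95% critical value. This held in 13 of 222 groups (5.86%), and chance alone gives about 1 in 20. In wild type, replicate 2 was the high array for Trp53inp1 (gap of 0.84 of the range) and the low array for Penk (0.866) and Kcnc4 (0.84). Replicate 1 was low for Hif3a (0.867) and high for Mal2 (0.831), replicate 4 high for Slc32a1 (0.859) and replicate 3 low for Rcan2 (0.842). In heterozygotes, replicate 2 was high for Tbr1 (0.939) and low for Bace2 (0.954). Replicate 1 was high for Chchd10 (0.888) and Gabrb1 (0.902), replicate 4 was high for Penk (0.831) and low for Cckbr (0.892). The gaps of Kcnc4 (7.84 against 7.96 to 7.98) and Cckbr (6.41 against 6.50 to 6.51) arose in groups with a narrow range. Without wild-type replicate 1, the high array of Mal2, its call held. The cause of these gaps was not tested.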

How the results depend on the processing

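The number of genes called at P0 (88) became 459 with the array batch block and 386 with the replicate block, 141 when a gene's probe sets were averaged (63.1% of them lower, against 79.5%), 0 with only the 8 P0 arrays (limma, 1405 at an unadjusted p under 0.05), and 7 and 24 within replicates 1 and 2 or 3 and 4 alone (91.7% lower in the latter). Leaving out 1 array gave 14 to 107. With the array batch block (459), leaving out 1 array gave 183 (without wild-type replicate 4) to 662 (without wild-type replicate 2), an alternative added after the data were seen, as was a batch block within age (465). The other settings gave 79 to 109, and the median of all genes moved by less than 0.1 in each. Among the named genes called without a block or with the batch block, no difference changed sign under any setting run. Shh and Wnt4 were not included in that reading. The difference in Dyrk1a and the count of genes whose effect differed between ages (0) kept their side of the threshold throughout. Fits with only the 8 P0 arrays cannot test the difference between ages. Apart from the fits with fewer arrays, which have fewer degrees of freedom, the cause of these changes was not tested. Signals near the filter (log2 5.15), such as those of Dmkn, Foxj1, Bace2 and Clca3a1, lie close to the dim end of the arrays, where a difference may be understated.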
